A study of Homo sapiens with 6 samples.

Results

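The histone genes were followed in poly(A)-selected RNA of SW480, an established human colorectal cancer line. They were taken from the gene table by name. Every protein-coding gene called HIST1H to HIST4H was counted as replication-dependent from its name alone, without a check that each is expressed in S phase. The variant genes were H2AFX, H2AFZ, H2AFV, H2AFY, H2AFJ, H3F3A, H3F3B, H1F0 and H1FX. This gave 80 of 58735 genes (19951 of them protein-coding), of which 71 were replication-dependent and 9 were variant genes. The study transfected the cells with a negative control siRNA (labelled si_NC) or with an siRNA against ITGB4, the integrin beta 4 subunit, with 3 biological replicates per group. All 6 samples are labelled wild type in genotype, and the siRNA sequence, its dose and the time of harvest were not given in the sources used here. RNA was captured on poly-T beads, which selects for RNA with a poly(A) stretch. How much other RNA was carried over was not measured. The question for these genes was how far they are seen in such libraries, and whether they differed between the siRNAs.

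Replication-dependent histone genes supply the core histones H2A, H2B, H3 and H4 and the linker histone H1 that package newly copied DNA. Their messenger RNAs are best known for ending just past a stem-loop, without a poly(A) tail. The protein SLBP binds that stem-loop, and the genes are switched on in S phase through NPAT. Variant histone genes are expressed outside S phase as well, and their messenger RNAs are ordinarily spliced or polyadenylated like those of other genes. Some replication-dependent genes are known to give polyadenylated RNA too, from signals downstream of the stem-loop.

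The annotated 3′ ends differed between the classes. The following stem-loops are shown because the element is typical of replication-dependent histone messenger RNA. Annotated transcripts may run on past it. Each is written 5′ to 3′ on the gene's strand with the 16 bases of the stem-loop in capitals, from GENCODE v29 transcripts on GRCh38. They are at chr6:26124664-26124689 (HIST1H2AC, plus strand), chr6:26158582-26158607 (HIST1H2BD, plus), chr1:228457364-228457389 (HIST3H2A, minus), chr6:27139649-27139674 (HIST1H4I, plus) and chr11:119094893-119094918 (H2AFX, minus), all in the 3′ UTR.
HIST1H2AC: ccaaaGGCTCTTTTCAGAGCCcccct
HIST1H2BD: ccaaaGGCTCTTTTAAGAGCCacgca
HIST3H2A: ataaaGGCTCTTTTCAGAGCCaccta
HIST1H4I: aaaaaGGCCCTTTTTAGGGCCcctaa
H2AFX: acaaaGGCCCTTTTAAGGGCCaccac

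The stem-loop was found in 32 replication-dependent genes and in 1 variant gene, H2AFX. It began 23 to 68 bases after the stop codon, and in H2AFX 50 bases after it. Searched the same way on the transcript strand, 39 of 19133 protein-coding genes with an annotated 3′ UTR held it (0.204%), and 33 of those 39 were histone members. The H4 genes differed in sequence from the other replication-dependent genes. All 8 H4 genes with a match began with GGCCC, as did H2AFX, and held the stem-loop as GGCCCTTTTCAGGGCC (5 genes) or as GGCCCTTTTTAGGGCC (3 genes). The commonest form, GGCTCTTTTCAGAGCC, was found in 17 genes, of which 8 were H2B, 6 were H2A and 3 were H3. For 35 replication-dependent genes, HIST1H2BK and HIST1H1C among them, the annotated protein-coding transcript ends with the coding bases, so no 3′ UTR could be searched.

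A polyadenylation signal, AATAAA or ATTAAA on the transcript strand, was searched for within 50 bases of annotated transcript ends. It was present in 22 of the 36 replication-dependent genes with an annotated 3′ UTR and in 8 of the 9 variant genes. The same was true of 83.6% of all protein-coding genes with a 3′ UTR. Both features were present in 21 replication-dependent genes. The signals below are shown in capitals for replication-dependent genes that have one and for 3 variant genes. They are at chr6:26139078-26139102 (HIST1H2AC, plus), chr6:26171315-26171340 (HIST1H2BD, plus), chr1:228456987-228457012 (HIST3H2A, minus), chr11:119093883-119093908 (H2AFX, minus), chr4:99948092-99948117 (H2AFZ, minus) and chr22:37807401-37807426 (H1F0, plus), all in the 3′ UTR.
HIST1H2AC: ggcatgaggtAATAAAaggtaatgc
HIST1H2BD: agttataattAATAAAatctgcggag
HIST3H2A: tttatctgatATTAAAagtatttatg
H2AFX: gactaattttATTAAAggattgtttt
H2AFZ: ggataagttcAATAAAggtcatatcc
H1F0: aaaactttaaAATAAAttggaaaagg

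In H2AFX the signal began 1065 bases after the stop codon, downstream of the stem-loop in the same 3′ UTR. In 4 replication-dependent genes (HIST1H2AC, HIST1H2BD, HIST1H2BC and HIST2H2BF) a spliced transcript is annotated whose intron removes the stem-loop. In HIST1H2BD and HIST1H2BC that transcript has a signal near its end. In HIST1H2AC and HIST2H2BF it has none, and the transcript with the signal keeps the stem-loop. A further stem-loop match in HIST1H2BN, at chr6:27839090-27839105, was not checked for such an intron, so the count of 4 may be incomplete. A match to these letters describes the annotation and was not tested as a site of use.

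Expression was given by the authors as FPKM, fragments scaled to the length of the gene model and to the size of the library. Whole reads could be recovered from these values for every gene, and the libraries held 13715266 to 15496274 reads. The targeted gene was lower as labelled: ITGB4 (chr17:75721328-75757818) was at 74.3, 63.8 and 69.8 FPKM with control siRNA and at 41.1, 38.1 and 37.9 with ITGB4 siRNA. Its log2 fold change was -0.81 (adjusted p = 0.0148, limma with Benjamini-Hochberg adjustment), so RNA of the target remained in all 3 libraries. That call is lost in 4 of the 6 fits that leave out a library (control replicate 3 or any ITGB4 siRNA replicate), with adjusted p of 0.0709 to 0.137. Of 11 colorectal epithelial markers, 6 were at 1 FPKM or more, EPCAM at 97.1 among them, whereas CEACAM5 was at 0 and CDX1, KRT20, LGALS4 and VIL1 were under 1. Of 19 fibroblast, endothelial and leukocyte markers, 3 reached 1 FPKM, and the highest was CD74 at 2.21.

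The variant genes were far more abundant in these libraries than most replication-dependent genes. All 9 variant genes were above 10 FPKM in the mean of the 6 libraries, with a median of 64.7 and a range of 13.9 to 233. The 71 replication-dependent genes had a median of 0.303 FPKM, and 17 of them (23.9%) reached a mean of 1. Over all protein-coding genes the median was 1.43 FPKM and 53.1% reached 1. A total of 11 replication-dependent genes had no read in any library. Of these, 10 are among the 35 genes without an annotated 3′ UTR and 1 is among the 36 with one. Reads from a 3′ UTR outside the model would not be counted, and the effect on these levels was not tested. A count of 0 in 89280994 reads allows up to 3 reads, or 3.36e-06% of them, for counting error only. These are levels of genes chosen by class, described without a test.

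**Figure D1:**
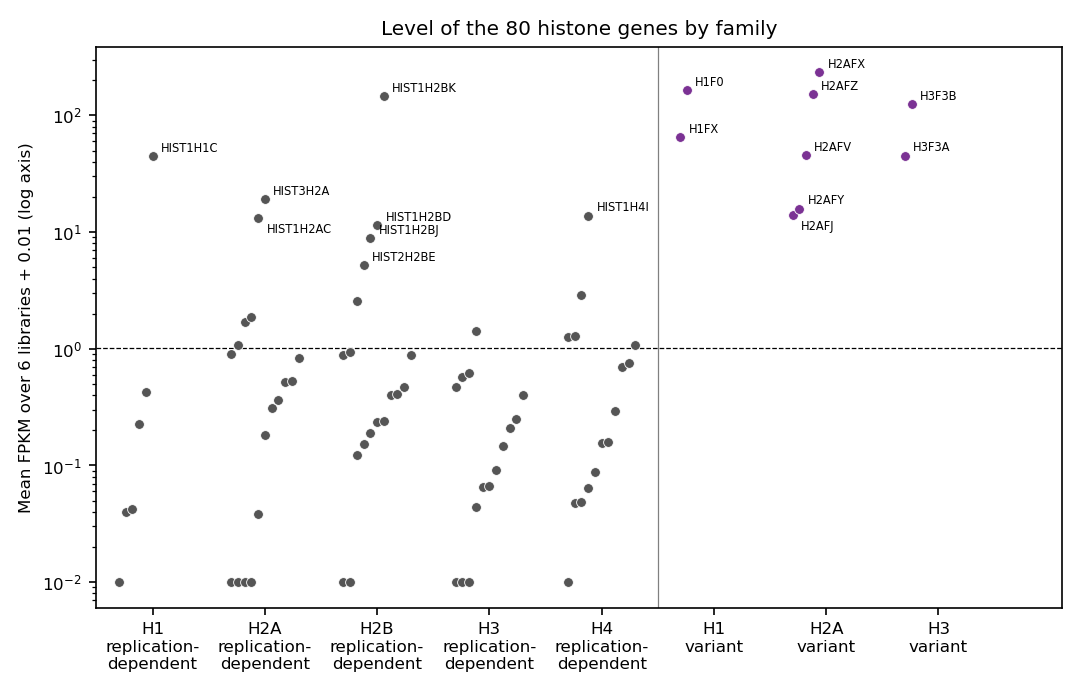
Mean FPKM over the 6 libraries (plus 0.01, log axis) of each of the 80 histone genes, by family, with replication-dependent genes in grey and variant genes in purple; the dashed line is at 1 FPKM. All 9 variant genes lie above 10 FPKM, while 54 of the 71 replication-dependent genes lie under 1 and HIST1H2BK stands alone among the latter at 147.

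Most of the replication-dependent signal came from few genes. HIST1H2BK, an H2B gene (chr6:27146418-27146798), alone made up 50.3% of the summed mean FPKM of the 71 genes. With HIST1H1C, which encodes a linker histone H1 (chr6:26055787-26056428), the share was 65.5%, and the 8 most abundant genes made up 90.04%. In reads, which are not divided by model length, the same genes took smaller shares of the 18671 replication-dependent reads, 26.9% for HIST1H2BK, 40.7% with HIST1H1C and 82.5% for the 8 genes. After these came HIST3H2A at 19.2 FPKM, HIST1H4I at 13.9, HIST1H2AC at 13.2, HIST1H2BD at 11.5, HIST1H2BJ at 8.94 and HIST2H2BE at 5.19. Only HIST1H2BK, HIST1H1C and HIST3H2A had a higher mean than the least abundant variant genes H2AFY and H2AFJ.

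Every core family was represented, though unequally. A mean of 1 FPKM or more was reached by 1 of 6 H1 genes, 5 of 17 H2A genes, 5 of 18 H2B genes, 1 of 15 H3 genes and 5 of 15 H4 genes. Among H1 genes, HIST1H1C was at 44.6 FPKM, while HIST1H1E was at 0.415, HIST1H1B at 0.216 and HIST1H1D at 0.0325. The H3 family was the least visible: HIST1H3H led it with 1.41 FPKM, followed by HIST1H3G at 0.604, HIST1H3E at 0.568 and HIST2H3D at 0.460. By contrast both H3 variant genes, H3F3B at 125 and H3F3A at 45.3, were abundant. Just inside the limit of 1 FPKM lay HIST1H4K at 1.08 and HIST2H2AC at 1.06, and just outside it HIST3H2BB at 0.924 and HIST1H2AI at 0.896.

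The order of levels depended on the length of the gene model, because FPKM divides by it. H3F3B had the most reads, 11460 per library in the mean, ahead of H1F0 with 5804, H2AFX with 5619 and H2AFZ with 5275. H2AFY, which encodes a macroH2A histone, came next with 4199.7 reads but had only 15.9 FPKM, since its model sums all annotated exons to 17730 bases. HIST1H2BK had 838 reads per library over a model of 381 coding bases, and HIST1H1C had 428 reads over 642. In reads, therefore, HIST1H2BK lay below 8 of the 9 variant genes, while in FPKM it lay below 3. This comparison of scales was added after the values were seen.

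Neighbouring genes that face away from each other differed in level to very unequal degrees. There were 12 such divergent pairs with at most 1000 bases between their annotated gene models, and in 3 of them both genes reached 1 FPKM. HIST1H2BO was paired with both HIST1H3J and HIST1H2AM, so the pairs hold 23 genes. The HIST1H3J model overlaps HIST1H2AM, and its protein-coding transcript holds only 411 of the 775 bases. The pairing of HIST1H3J therefore rests on the bounds of its gene model. The models of HIST1H2BK and HIST1H2AH begin at the start codon, so the distance given for them is not that between transcript starts. HIST1H2BK at 147 FPKM and HIST1H2AH at 0.354 start 330 bases apart. HIST3H2A at 19.2 and HIST3H2BB at 0.924 start 233 bases apart. HIST1H2AC at 13.2 and HIST1H2BC at 2.57, both above 1 FPKM, start 218 bases apart. Levels were closer in other pairs, as in HIST1H2AE at 1.88 and HIST1H2BG at 0.879, and HIST1H2AA and HIST1H2BA were both at 0. The pairs were listed after the values had been seen and are a description.

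**Figure D2:**
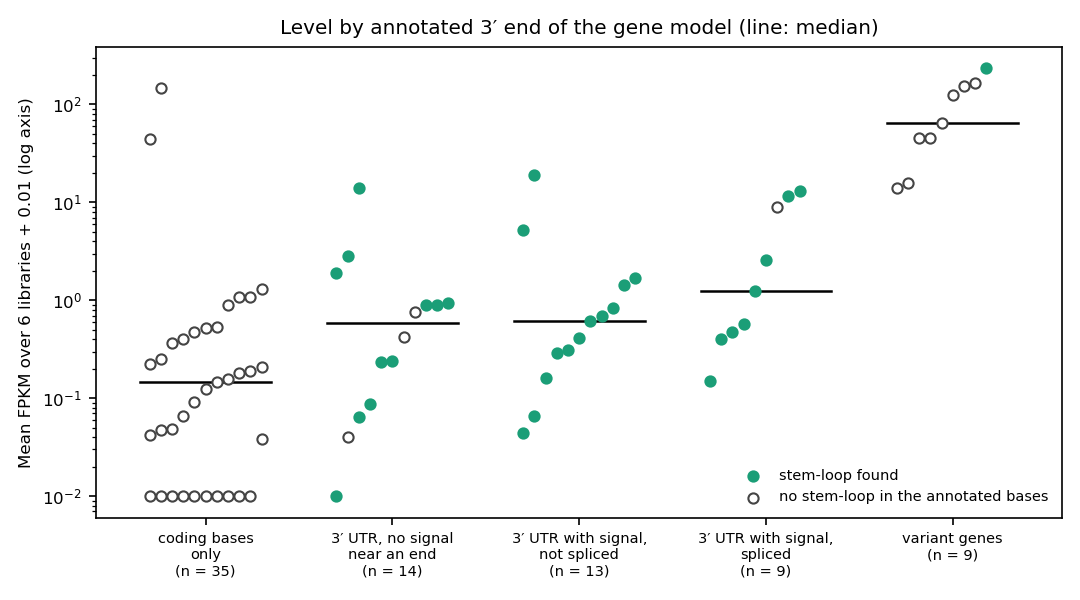
Mean FPKM (plus 0.01, log axis) of the 71 replication-dependent genes by the annotated 3′ end of their model, and of the 9 variant genes. Filled points hold a stem-loop match in an annotated 3′ UTR. Open points have no match there or, for coding bases only, no 3′ UTR to search. Lines are medians. Genes without an annotated 3′ UTR, labelled coding bases only, have the lowest median, 0.137 FPKM, but include the highest replication-dependent gene, HIST1H2BK.

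Levels overlapped widely between kinds of annotated 3′ end. The 35 genes without an annotated 3′ UTR had a median of 0.137 FPKM and ranged from 0 to 147. Reads from a 3′ UTR outside these models would not be counted. The 14 genes with a 3′ UTR but no polyadenylation signal near its end had a median of 0.581. For genes with a signal the median was 0.604 where no spliced transcript is annotated (13 genes) and 1.25 where one is (9 genes). The 4 genes found to have a spliced transcript that removes the stem-loop were at 13.2 (HIST1H2AC), 11.5 (HIST1H2BD), 2.57 (HIST1H2BC) and 0.460 FPKM (HIST2H2BF). HIST1H4I, at 13.9 FPKM, has a stem-loop and no signal near its annotated end, so a high level was not limited to models with a signal. The groups were formed after the levels were known and are a description.

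Read assignment limits a few members. HIST1H4J and HIST1H4K, HIST2H2AA3 and HIST2H2AA4, HIST2H3A and HIST2H3C, and HIST2H4A and HIST2H4B are identical in coding sequence, so their separate levels are uncertain. HIST2H3D and HIST2H3PS2 differ in only 5 of 411 coding bases, so their levels are uncertain as well. H3F3B overlaps UNK (7.58 FPKM) and H2AFY overlaps C5orf66 (1.80 FPKM) on the opposite strand, and use of strand in the authors' counting was not given in the sources used here. Among the genes with no read, HIST1H2AD and HIST1H3D overlap AL031777.3 on the same strand, and HIST1H2AM overlaps HIST1H3J. HIST2H3PS2 overlaps AC239798.4, itself at 0 FPKM. How reads shared between genes were counted was not given either, so the lack of reads there may also reflect assignment, which was not tested. Outside the members, 19 rows are named as histone pseudogenes, and 2 of them reached 1 FPKM, HIST2H2BC with 1.36 and HIST2H2BD with 1.09.

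In the comparison of siRNAs, no histone gene passed the test. Of the 80 members, 26 had a mean of at least 1 FPKM and were tested among 12871 genes by limma on log2(FPKM + 1): all 9 variant and 17 replication-dependent genes. None of the 26 had an adjusted p under 0.05, where 0.0466% of all genes tested did (6 genes, 0.0233% higher and 0.0233% lower). Before adjustment, 3 members had p under 0.05, all with lower means after ITGB4 siRNA, against 2.92% of all genes in that direction, 2.91% in the other and 5.83% in either. By limma-voom on the recovered reads 0 members were called as well, among 26 genes in all (0.202%), and 1 member had p under 0.05 before adjustment. The median log2 fold change was -0.02 for replication-dependent genes (10 below 0, 7 above) and -0.02 for variant genes (7 below, 2 above), beside -0.00 over all genes tested, of which 51.5% were below 0. HIST1H4K and HIST2H2AC were tested only because of their control libraries, since their means with ITGB4 siRNA were 0.800 and 0.917 FPKM.

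**Figure D3:**
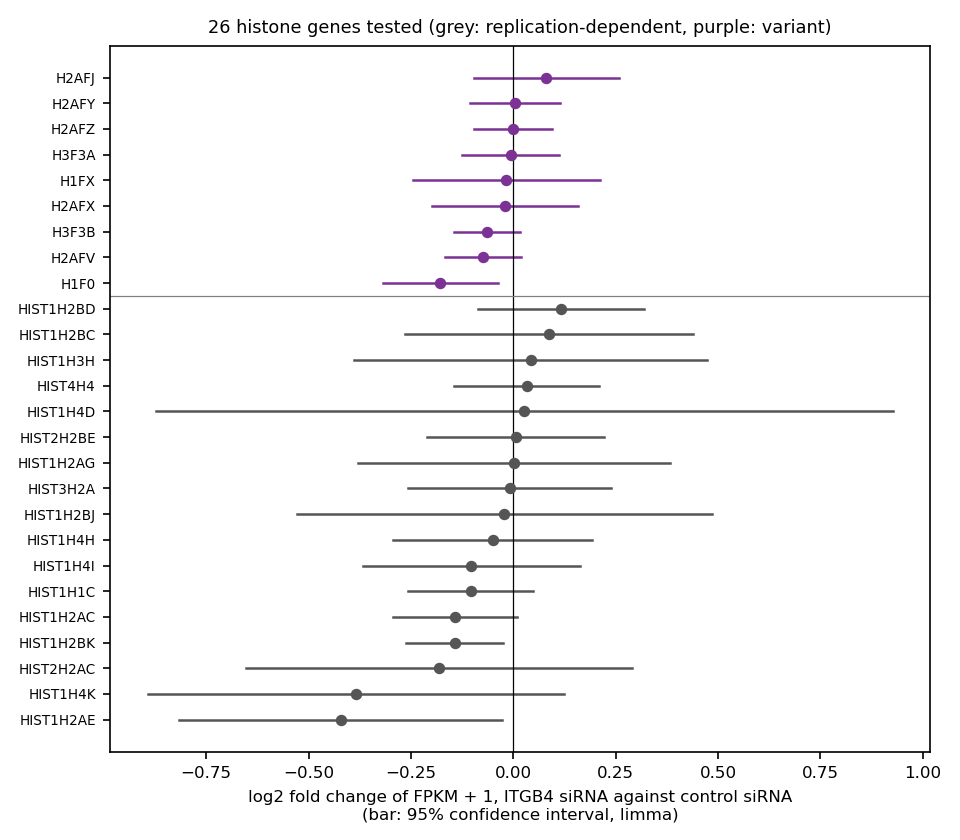
Log2 fold change of FPKM + 1, ITGB4 siRNA against control siRNA, for the 26 histone genes tested, with 95% confidence intervals from limma (3 libraries per group). The intervals of H1F0, HIST1H2BK and HIST1H2AE lie below 0 before adjustment, and those of the remaining 23 genes span 0.

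Among the linker histones, H1F0, a variant known for accumulating in cells that stop dividing, had the smallest adjusted p of all members. It was at 187, 170.2 and 171 FPKM with control siRNA and at 164, 146 and 157 with ITGB4 siRNA. The groups did not overlap, the highest ITGB4 siRNA library lying below the lowest control. The means were 176 ± 9.42 and 156 ± 8.83 FPKM (SD, n = 3 each), a log2 fold change of -0.18 (95% interval -0.32 to -0.04, unadjusted p = 0.0197 and adjusted p = 0.758 by limma). In an exact two-sided permutation test p was 0.1, the smallest that 3 against 3 can give. H1FX, a further linker variant, was at 74.5, 57.1 and 64.2 against 67.6, 64.2 and 60.7 FPKM, and the groups overlapped. Its log2 fold change was -0.02 (-0.25 to 0.21). HIST1H1C was at 44.2, 45.3 and 49.3 against 40.8, 46.2 and 42.0 FPKM, also overlapping, with a log2 fold change of -0.10 (-0.26 to 0.05; adjusted p = 0.983 by limma).

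Among the H2A genes, H2AFX encodes the variant that is phosphorylated at DNA breaks and was the most abundant member in FPKM. It was at 262, 212 and 233 FPKM with control siRNA and at 235, 231 and 227 with ITGB4 siRNA. The control libraries spread far more than the ITGB4 siRNA libraries, with replicate 1 highest and replicate 2 lowest of all 6, and the same 2 libraries were the highest and lowest for H1FX. The log2 fold change of H2AFX was -0.02 (-0.20 to 0.16). H2AFZ and H2AFV encode the closely related H2A.Z histones found beside active promoters. H2AFZ was at 157, 155 and 148 against 154, 156 and 149.9 FPKM, with a log2 fold change of -0.00 (-0.10 to 0.10). H2AFV was at 47.3, 47.3 and 46.8 against 43.4, 45.3 and 45.4 FPKM, and the groups did not overlap. The H2AFV difference was small, -0.07 on the log2 scale (-0.17 to 0.02; adjusted p = 0.938 by limma). Neither of the other H2A variant genes showed separate groups. H2AFY was at 16.5, 15.8 and 15.3 against 15.7, 15.9 and 16.1 FPKM, with a log2 fold change of 0.00 (-0.11 to 0.11). H2AFJ was at 13.5, 13.5 and 13.3 against 14.6, 12.7 and 15.7 FPKM, with a log2 fold change of 0.08 (-0.10 to 0.26), and the ITGB4 siRNA libraries lay on both sides of the controls.

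The replication-dependent H2A genes tested ranged from 19.2 FPKM (HIST3H2A) down to 1.06 (HIST2H2AC). HIST3H2A was at 19.7, 18.7 and 19.1 against 20.5, 21.2 and 15.9 FPKM, where ITGB4 siRNA replicate 3 was the lowest library. HIST1H2AC was at 13.6, 13.2 and 14.8 against 11.9, 12.3 and 13.2 FPKM, a log2 fold change of -0.14 (-0.29 to 0.01; adjusted p = 0.883 by limma). Its groups overlapped by a hair, with 2 libraries near 13.2. HIST1H2AE was at 2.12, 2.65 and 2.06 against 0.993, 2.06 and 1.39 FPKM. Its groups were separated only in the third decimal place, and it had 86 reads over all 6 libraries. Its log2 fold change of -0.42 (-0.82 to -0.03; unadjusted p = 0.0396, adjusted p = 0.817 by limma) is on the scale of FPKM + 1, which understates changes at this level. HIST1H2AG was at 1.44, 1.26 and 2.36 against 1.44, 1.72 and 1.80 FPKM, with overlapping groups.

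Among the H2B genes, HIST1H2BK was at 155, 157 and 153 FPKM with control siRNA and at 145, 145 and 131 with ITGB4 siRNA. The groups did not overlap, and ITGB4 siRNA replicate 3 was the lowest. The means were 155 ± 2.0 and 140.2 ± 7.98 FPKM (SD, n = 3 each), a log2 fold change of -0.14 (-0.26 to -0.03, unadjusted p = 0.0239, adjusted p = 0.794 by limma). The other H2B genes did not share this separation. HIST1H2BD was at 10.8, 10.5 and 11.7 against 11.1, 13.7 and 11.4 FPKM. HIST1H2BJ was at 9.96, 7.81 and 8.84 against 6.08, 8.75 and 12.2 FPKM, so the ITGB4 siRNA libraries held both its lowest and its highest value. HIST2H2BE was at 4.56, 5.81 and 5.17 against 4.84, 5.10 and 5.65 FPKM, with both means near 5.2.

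Among the H3 genes, H3F3A and H3F3B encode the same replacement histone, which chaperones deposit outside DNA replication. H3F3B (chr17:75776434-75785893) lies 18615 bases from the end of ITGB4. It was at 127, 127 and 129 against 121, 123 and 123 FPKM, without overlap. The difference was -0.06 on the log2 scale (-0.14 to 0.02; adjusted p = 0.938 by limma), or -4.40% of the control mean. H3F3A was at 44.3, 45.5 and 46.3 against 44.8, 47.7 and 43.1 FPKM, with overlapping groups. HIST1H3H, the only replication-dependent H3 gene tested, was at 0.983, 1.47 and 1.64 against 1.11, 2.06 and 1.19 FPKM.

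Among the H4 genes, which have no variant member here, HIST1H4I was at 13.3, 15.3 and 14.4 against 11.3, 13.2 and 15.6 FPKM. The ITGB4 siRNA libraries spanned the controls on both sides, and the log2 fold change was -0.10 (-0.37 to 0.16). HIST4H4 was at 2.73, 2.72 and 2.98 against 2.66, 2.92 and 3.11 FPKM. HIST1H4D, with 36 reads in all, was at 0.650, 2.60 and 0.631 against 0.926, 0.629 and 2.26 FPKM, so a single library was high in each group. HIST1H4H was at 1.12, 1.31 and 1.43 against 1.10, 1.33 and 1.19 FPKM.

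**Figure D4:**
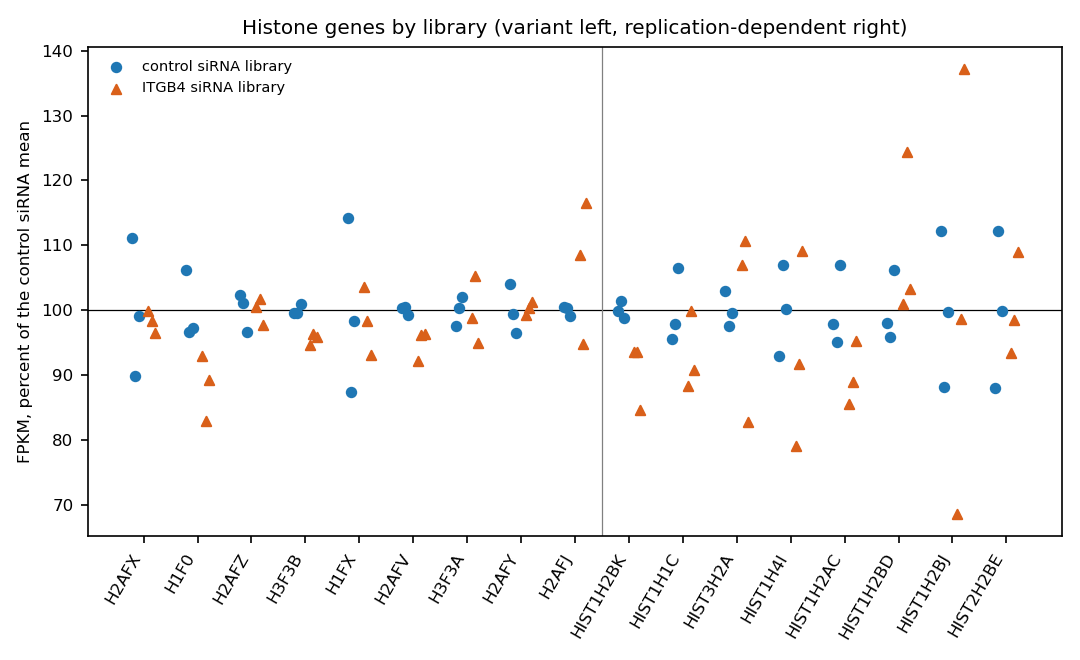
FPKM of each library as percent of the control siRNA mean for the 9 variant genes (left) and the 8 most abundant replication-dependent genes (right); circles are control siRNA libraries and triangles ITGB4 siRNA libraries. The groups are separate in H1F0, H3F3B, H2AFV and HIST1H2BK and overlap in the remaining 13 genes.

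In all, the groups did not overlap in 5 of the 26 members (H1F0, HIST1H2BK, HIST1H2AE, H2AFV and H3F3B), each with the lower values after ITGB4 siRNA, and in 0 members with the higher values there. Over all genes tested, 5.36% were separate in the lower direction, 5.75% in the higher and 11.1% in either. The library that was highest or lowest differed by gene. Control replicate 1 was the highest of the 6 libraries in 5 of 9 variant genes and in 0 of 17 replication-dependent genes. ITGB4 siRNA replicate 1 was the lowest in 7 of those 17. The coefficient of variation among control libraries had a median of 3.03% for variant genes and 12.1% for replication-dependent genes tested, so smaller differences could be seen in the former.

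Summed levels were then compared as values, without a test, because a sum over chosen genes is no independent measure. The 71 replication-dependent genes summed to 299, 308 and 308 FPKM with control siRNA and to 277, 291 and 275 with ITGB4 siRNA. The groups did not overlap, and the means of 305 ± 5.29 and 281 ± 8.59 FPKM (SD, n = 3 each) differed by -7.73%. As a share of reads, which gives long models more weight, the difference was -5.78% and the groups overlapped, with 0.0208, 0.0215 and 0.0223% against 0.0195, 0.0209 and 0.0205%. Without HIST1H2BK and HIST1H1C the sums were 100.1, 106 and 106 against 91.8, 100.2 and 103 FPKM and overlapped. In bulk RNA, fewer cells in a phase of the cycle and less RNA per cell cannot be told apart.

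The 54 replication-dependent genes with a mean under 1 FPKM summed to 15.1, 16.4 and 15.7 against 12.9, 12.2 and 12.6 FPKM. These groups did not overlap, and the means of 15.8 ± 0.655 and 12.6 ± 0.393 FPKM (SD, n = 3 each) differed by -20.3%. The sum rests on few reads, 810 in the control and 686 in the ITGB4 siRNA libraries, and as a share of reads the difference was -14.7%. Of the 54 genes, 29 had a lower and 14 a higher mean with ITGB4 siRNA, and 11 were at 0 in both. In 0 of them did the groups not overlap, but with a median of 9 reads over the 6 libraries few could have separated. The share over all genes this low was not computed. The largest single difference among the 54 was seen in HIST1H4C (named after its values were seen), whose 1.07 and 0.419 FPKM rest on 29 reads. The summed S phase genes listed below lay in separate ranges as well, 1467 to 1510 FPKM with control and 1440 to 1464 with ITGB4 siRNA, and their part in the histone sums was not tested.

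The 9 variant genes summed to 929, 843 and 868 against 861, 843 and 838 FPKM, with overlapping groups and a difference of -3.77%. Control replicate 1 set much of it: without that library the difference was -1.0%. The ratio of the variant to the replication-dependent sum was 2.89 ± 0.195 with control and 3.01 ± 0.107 with ITGB4 siRNA (SD, n = 3 each), a difference within the spread between libraries. In reads the ratio was 12.7 ± 0.777 and 13.0 ± 0.598 (SD, n = 3 each), again within the spread, so the size of the ratio depends on the scale.

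**Figure D5:**
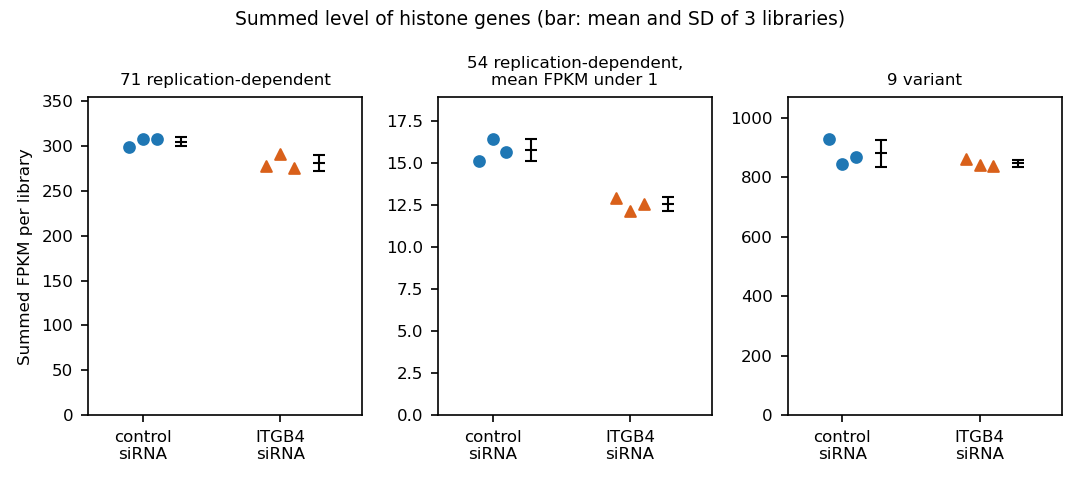
Summed FPKM per library of the 71 replication-dependent genes, of the 54 of them with a mean under 1 FPKM, and of the 9 variant genes; circles are control siRNA and triangles ITGB4 siRNA libraries, and bars give the mean and SD of 3 libraries. The groups are separate in the first 2 panels (305 against 281 and 15.8 against 12.6 FPKM in the mean) and overlap in the last.

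The genes that make and handle histones were present and did not pass the test. Of 26 tested genes for histone messenger RNA synthesis and 3′ end processing, 16 had lower and 10 had higher fitted levels with ITGB4 siRNA, and 0 were called. Over all genes tested, 51.5% were lower and 0.0466% were called, so a call in a list this short was unlikely. SLBP was at 47.8, 50.3 and 49.9 against 45.1, 49.2 and 47.8 FPKM, with overlapping groups and a log2 fold change of -0.06 (-0.17 to 0.06). NPAT was at 4.27, 5.87 and 5.57 against 5.15, 4.77 and 5.03 FPKM, again overlapping. Of 27 tested chaperone and deposition genes, 15 were below 0 and 12 above, and 0 were called. The smallest adjusted p among them was that of SUPT16H, a subunit of the FACT complex that opens nucleosomes, at 41.8, 44.8 and 42.0 against 48.4, 50.6 and 49.2 FPKM. Its groups did not overlap (log2 fold change 0.20, adjusted p = 0.481 by limma).

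Of 26 S phase genes, 20 were below 0 and 6 above, with a median log2 fold change of -0.02 and 0 called. Over all genes tested, 51.5% were below 0 and 0.0466% were called. Of 16 cleavage and polyadenylation genes, 6 were below 0 and 10 above, with a median of 0.01 and 0 called. Of the histone variant genes outside the members, 2 were tested. CENPA, the H3 variant of centromeres, was at 28.8, 30.0 and 31.2 against 28.4, 29.3 and 29.9 FPKM, with overlapping groups. The other, H2AFY2, had means of 7.19 and 7.16 FPKM.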

How the data were processed

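Gene expression was measured in 6 RNA-seq libraries of SW480 cells, 3 with control siRNA and 3 with ITGB4 siRNA. The deposited table gives FPKM per gene and library; the authors' genome build is GRCh38 per the submitters' processing notes, and the aligner and counter are not given in the sources used here. All 58735 genes match GENCODE v29 in start, end and strand by comparison, so that annotation supplied transcripts and coordinates. FPKM multiplied by gene length gave whole reads for 100.0% of values (tolerance 0.01). Median-of-ratios factors of the deposited FPKM were equal in the 6 libraries (1.00), so the values already carry that scaling.

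The 12871 genes whose mean FPKM reached 1 were tested with limma 3.58.1 in R 4.3.3 on log2(FPKM + 1), without covariates, two-sided, with Benjamini-Hochberg adjustment at 0.05; intervals are 95%. The procedure was tested on simulated data. Single genes also had an exact permutation test. Named were ITGB4, all variant genes, the 4 most abundant replication-dependent genes per family, those with an unadjusted p under 0.05, those beside the filter limit, up to 3 genes per list, and SLBP, NPAT and CENPA. Members and lists were chosen with earlier results of these data known. The replication-dependent class was read from gene names. Alternatives were another pseudocount, filters, TPM, another scaling, limma-voom on recovered reads, the replicate number as a block, leaving out each library, and H2AFX and H2AFJ moved to the replication-dependent class. Sums, divergent pairs and groups by 3′ end were added after the data were seen.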

Additional observations from a re-analysis of the deposited data

How the results depend on the processing

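Histone members called numbered 0 under every alternative run. Over all genes tested, 0 were called without a filter on low values, 26 by limma-voom on recovered reads, and 0 to 7 when a library was left out. Correlations of deviations were 0.17, 0.10 and -0.01 for same-numbered libraries and -0.17 to 0.09 for the others. Whether the titles' replicate numbers pair the libraries was therefore not settled. With the replicate number as a block 0 genes were called, with 1064 at an unadjusted p under 0.05 and 4 members among them. At that threshold there were 750 genes in the reported fit and 1356 without a filter. Adjusted p of ITGB4 was then 0.0618 without a filter and 0.0564 with the replicate block. Leaving out each library moved the median log2 fold change of replication-dependent members between -0.10 (without control replicate 1) and 0.0029 (without ITGB4 siRNA replicate 1), and that of variant members between -0.07 and 0.02. The cause was not tested. The sum of the 54 least abundant members differed by -14.7% as a share of reads, against -20.3% in FPKM.

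The fold changes of 15 named genes turned sign under some alternative. H2AFZ was at 0.0045 in TPM and at 0.0060 by limma-voom. Leaving out a library gave log2 fold changes of -0.025 to 0.017 for H2AFZ, -0.24 to 0.20 for HIST1H2BJ, -0.023 to 0.22 for HIST1H2BC, -0.083 to 0.12 for HIST3H2A, -0.068 to 0.079 for HIST2H2BE, -0.11 to 0.082 for H1FX, -0.095 to 0.058 for H2AFX and -0.11 to 0.17 for HIST1H2AG. It gave -0.27 to 0.40 for HIST1H4D, -0.13 to 0.14 for HIST1H3H, -0.17 to 0.024 for NPAT, -0.020 to 0.032 for H2AFY, -0.045 to 0.027 for H3F3A, -0.21 to 0.0029 for HIST1H4I and -0.0073 to 0.077 for HIST4H4. Of 394 fold changes of named genes under the alternatives, 356 kept their direction and their side of the threshold, 32 turned sign, and 6, all of ITGB4, no longer passed. The median-of-ratios scaling is counted here although its factors were equal in the 6 libraries, so it could hardly change a value. All histone members had an adjusted p of at least 0.758 by limma in the reported fit, so their side of the threshold was unlikely to change. Depth limits the least abundant members: the 54 had a median of 9 reads over the 6 libraries, and 19 of them had 0 to 3.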
